A study of Mus musculus with 4 samples.

Results

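The kinetochore and spindle checkpoint genes comprised 40 listed genes, chosen by name from the subunits of centromeric chromatin, of the kinetochore and of the checkpoint that reads it. Of these, 38 had at least 1 probe of the same gene name on the arrays, among 31824 gene names in all, and Ska2 and Ska3 had none. Expression was compared in wild-type (WT, p53+/+) and p53-/- mouse embryonic fibroblasts (MEFs), fibroblasts grown from mouse embryos, each without and with doxorubicin. Each of these 4 conditions was 1 sample of total RNA on 1 one-color Agilent array, and all 4 arrays lay on 1 slide. Doxorubicin is an anthracycline that intercalates into DNA and traps topoisomerase II on it, leaving double-strand breaks. p53 is the transcription factor that is stabilized by such damage, and in the p53-/- cells both copies of its gene, Trp53, are knocked out. The dose and time of doxorubicin for the arrays, the form of the p53 allele, the age of the embryos and the number of embryos or cultures behind each RNA are not given in the sources used here. With 1 array per condition there was no replicate error, so differences are given as sizes without a test, and "rose" and "fell" denote changes of at least 2-fold.

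The kinetochore is the protein machine built on the centromere that holds a chromosome to the spindle. CENP-A nucleosomes mark the site, a constitutive centromere-associated network of CENP proteins binds them throughout the cell cycle, and the KNL1, MIS12 and NDC80 complexes are added in mitosis to grip microtubules. Kinetochores without microtubules recruit MPS1, BUB and MAD proteins, which hold back the anaphase-promoting complex until every chromosome is attached. Many of these genes are transcribed mainly in G2 and mitosis, so their mRNA is abundant in dividing fibroblasts and scarce in cells that have left the cycle. In RNA from whole cultures, fewer cells with a transcript and less of the transcript per cell cannot be told apart.

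Signals are given as percentages of the 75th percentile of the same array, which removes overall brightness, and a ratio was measured where the probe was called well above background on both arrays compared. The percentile itself stood at signals of 1818.6 to 2421.3, and 56.9% to 62.9% of the probes were well above background. Probes spotted 10 times differed between spots by an SD of 0.08 in log2 intensity, which makes 0.11 for a log2 ratio. That spread lies within an array and holds neither culture nor labeling error. Trp53, the targeted gene, gave 59.2% and 189% in untreated and doxorubicin-treated WT MEFs and 23.5% and 22.4% in the p53-/- MEFs, so its probe stayed well above background in the knockout cells. Whether that probe lies in the deleted part was not analysed here. All 10 fibroblast markers were well above background on every array. With doxorubicin Col1a1 and Vim were within 2-fold in both genotypes, although 3 of the 10 fell in WT MEFs (Pdgfra, with a log2 ratio of −3.36, Pdgfrb and Dcn). Pdgfrb alone fell in p53-/- MEFs. Between untreated cells, S100a4 (log2 ratio −2.01) and Dcn (−1.14) were at least 2-fold lower in p53-/- than in WT MEFs, where 2.62% of all genes were. Between treated cells, Pdgfra was higher in p53-/- MEFs (3.22). Epcam and Cdh5, defining markers of epithelium and endothelium, were not well above background on any array. Other markers of those lists were, with Krt8, Krt18 and Krt14 of epithelium and Kdr and Pecam1 of endothelium well above background on all 4. With doxorubicin Krt14 rose in both genotypes (WT log2 ratio 1.54, p53-/- log2 ratio 1.05) and Krt18 in p53-/- MEFs (1.91). The summed levels of the 5 epithelial markers were 571%, 998%, 534% and 1788% in untreated and treated WT and untreated and treated p53-/- MEFs. The corresponding sums ranged from 233% to 420% for 4 endothelial markers and from 1406% to 1917% for 5 leukocyte markers, of which Ptprc, Csf1r and Itgam were well above background on every array. The part of other cell types in the results was not tested.

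In WT MEFs, doxorubicin was accompanied by lower signal for most of the kinetochore and checkpoint genes. Of 32 genes with a measured ratio, 21 fell at least 2-fold, where 10.4% of all 17546 genes measured did, and 1 (Cenpt) rose, where 11.0% did. The median log2 ratio was −1.65, against 0.01 for all genes. Another 5 genes (Oip5, Casc5, Nuf2, Ska1 and Ttk) dropped out of the range well above background in treated WT MEFs. They fell by limits above 2-fold, although that of Ttk was 1.78-fold against the brightest negative control. That makes 26 of 37 genes measured or bounded, where 2208 of 18952 genes counted the same way fell. Genes entered by a limit only if it reached 2-fold, so bounded genes could only add to those called. In p53-/- MEFs none of the 38 genes fell, where 6.89% of 16978 genes did, and 9 rose (Cenph, Nsl1, Oip5, Ndc80, Cenpk, Cenpl, Cenpq, Cenpt and Sgol2), where 9.24% did. The median there was 0.47, against 0.00 for all genes. The rises in p53-/- MEFs were small and turned on the scaling. With each array scaled to its median probe, which set the all-gene median at −0.27 for WT and −0.30 for p53-/- MEFs, 22 genes fell in WT MEFs and only Cenph rose in p53-/- MEFs. Relative to all genes, the median of the kinetochore genes was −1.66 in WT and 0.47 in p53-/- MEFs under either scaling. These values could not differ, since either scaling shifts all log2 ratios of a comparison by the same amount. That scaling changed the make-up of the whole array as well, with 15.9% of genes lower and 7.53% higher in WT MEFs, and 12.4% lower and 5.63% higher in p53-/- MEFs.

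**Figure D1:**
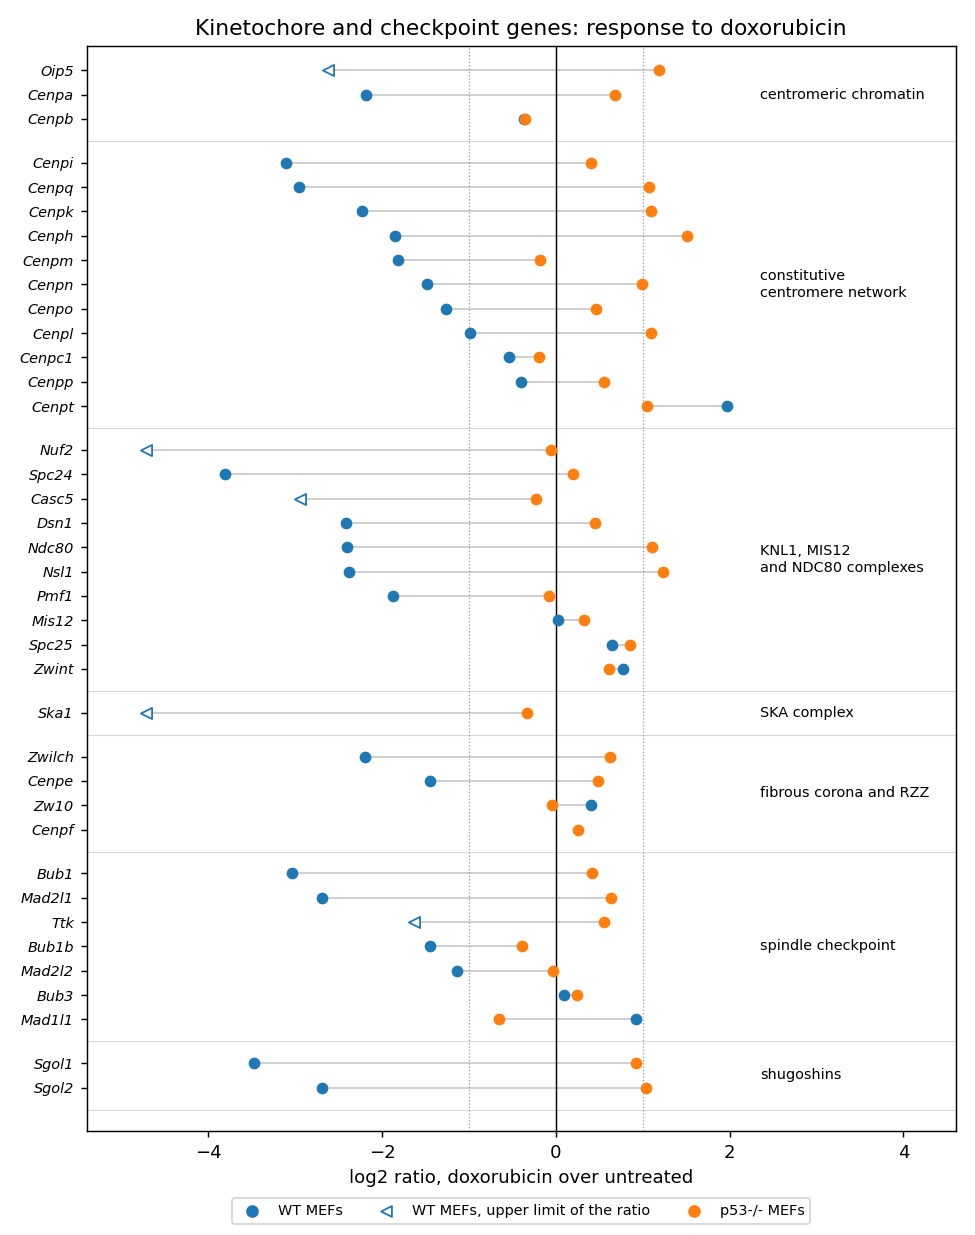
Log2 ratio of doxorubicin-treated over untreated MEFs (horizontal axis) for the 38 genes with a probe (rows, grouped by complex), in WT (blue) and p53-/- MEFs (orange). Open triangles are upper limits for the 5 genes not well above background in treated WT MEFs, dotted lines mark 2-fold, and Cenpf has no WT value. Most blue points lie left of −1 and all orange points lie right of it, and Cenpt is the only gene right of 1 in WT MEFs.

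At the base of the structure, Cenpa and Oip5 fell in WT MEFs and Cenpb did not. Cenpa, the histone H3 variant that marks centromeres, stood at 159% in untreated and 34.8% in treated WT MEFs, and at 350% and 561% in untreated and treated p53-/- MEFs. It was 4.56-fold lower with doxorubicin in WT MEFs and within 2-fold in p53-/- MEFs, with log2 ratios of −2.19 and 0.68. The Cenpa probe maps to chr5:30974916-30975386 in mm9, a span longer than the probe itself. Oip5, the Mis18β subunit that licenses new CENP-A for loading, gave 15.0% in untreated WT MEFs and was not well above background after treatment. This is a fall of at least 6.15-fold, or at least 3.52-fold if the brightest negative control spot of that array is taken as the limit. Oip5 rose from 29.6% to 67.5% in p53-/- MEFs. Cenpb, which binds a short DNA box in centromeric satellite repeats, gave 760% and 586% in WT and 719% and 562% in p53-/- MEFs, so all 4 arrays lay close together.

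The constitutive centromere-associated network links CENP-A to the outer kinetochore, and 7 of its 11 genes fell in WT MEFs, the median being −1.48. The same genes had a median of 0.99 in p53-/- MEFs, where 5 of the 11 rose. Cenpi, a subunit of the CENP-H/I/K/M group, went from 37.5% to 4.38% in WT MEFs (8.56-fold lower), against 69.5% and 92.5% in p53-/- MEFs. Cenpq, of the CENP-O/P/Q/R/U group, went from 55.4% to 7.18% in WT MEFs and from 96.4% to 203% in p53-/- MEFs. Its probe was spotted 10 times on each array, and the kept spots ranged from 51.2% to 58.7%, 6.15% to 8.01%, 88.3% to 104% and 187% to 218% in the order untreated WT, treated WT, untreated p53-/- and treated p53-/-. The 4 ranges did not overlap, so the spread between spots was smaller than the differences between arrays. The 10 spots of a Cenpo probe did not overlap between arrays either, yet another Cenpo probe gave a log2 ratio of 1.31 in WT MEFs. Cenph showed the largest rise of any of the 38 genes in p53-/- MEFs, from 181% to 515% (log2 ratio 1.51), beside a fall from 109% to 30.2% in WT MEFs.

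The other subunits of the network were less uniform. Cenpk fell from 116% to 24.9% in WT MEFs, Cenpm from 14.4% to 4.08%, Cenpn from 33.8% to 12.1% and Cenpo from 60.4% to 25.3%. Cenpk rose from 194% to 418% in p53-/- MEFs, where Cenpm, Cenpn and Cenpo stayed within 2-fold. The treated WT signal of Cenpm lay below the brightest negative control of its array, so its ratio too was taken against a signal within the range of background. Cenpl, at a log2 ratio of −0.99, missed the 2-fold limit in WT MEFs by a margin smaller than the spread between spots, and rose from 96.9% to 207% in p53-/- MEFs. Cenpc1, the direct reader of CENP-A nucleosomes also called Cenpc, gave 106%, 72.8%, 117% and 103% in the order used above. Cenpp gave 34.4%, 26.1%, 65.6% and 97.0%. Both were within 2-fold in either genotype.

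Cenpt moved against most of the network in WT MEFs. This histone-fold subunit, which recruits NDC80 complexes to the centromere, rose from 141% to 554% in WT MEFs (3.92-fold) and from 193% to 401% in p53-/- MEFs (2.07-fold, and 0.76 on the log2 scale with arrays scaled to the median). No other of the 32 measured genes rose in WT MEFs, and none of them rose in both genotypes. Its single probe lies at chr8:108369009-108369068 in mm9. In treated cells its p53-/- signal was below its WT signal, with a log2 ratio of −0.47.

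Among the 10 genes of the KNL1, MIS12 and NDC80 complexes, 5 of 8 measured genes fell in WT MEFs with a median of −2.12, and 2 more fell by limits. The NDC80 complex, the main microtubule coupler, has 4 subunits. Spc24 dropped from 59.0% to 4.21% (14.0-fold lower), Ndc80 from 42.7% to 8.10%, and Nuf2 from 63.9% to a signal not well above background, at least 26.2-fold lower or at least 15.0-fold against the brightest negative control. The fourth subunit, Spc25, did not share this course and gave 585% and 918% in untreated and treated WT MEFs. The pairs of untreated and treated signals in p53-/- MEFs were 109% and 125% for Spc24, 83.1% and 180% for Ndc80, 133% and 129% for Nuf2, and 882% and 1594% for Spc25. Only Ndc80 passed 2-fold there. The treated WT signal of Spc24 was below the brightest negative control, so its ratio was taken against a signal within the range of background.

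Within the MIS12 complex, which joins the inner kinetochore to NDC80, Dsn1 fell from 61.3% to 11.5%, Nsl1 from 51.2% to 9.87% and Pmf1 from 176% to 48.0% in WT MEFs. The complex's namesake, Mis12, did not, at 33.2% and 33.9%. Nsl1 rose from 126% to 295% in p53-/- MEFs, whereas Dsn1 (81.2% and 111%), Pmf1 (481% and 455%) and Mis12 (log2 ratio 0.32) stayed within 2-fold. Casc5, the mouse Knl1 gene, whose product is the docking site for BUB proteins, fell at least 7.70-fold in WT MEFs from 18.8%, or at least 4.40-fold against the brightest negative control, and gave 38.5% and 32.9% in p53-/- MEFs. Its partner Zwint stayed within 2-fold, with 801% and 1370% in WT and 921% and 1404% in p53-/- MEFs. Each of the 3 outer complexes held a gene that fell and a gene that did not.

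Ska1, of the SKA complex that tracks depolymerizing microtubule ends, gave 64.1% in untreated WT MEFs and was not well above background after doxorubicin, a fall of at least 26.3-fold, or at least 15.0-fold against the brightest negative control. It gave 139% and 111% in p53-/- MEFs, within 2-fold. Nuf2 and Ska1 had the highest limits among the 5 genes that dropped out of range.

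**Figure D2:**
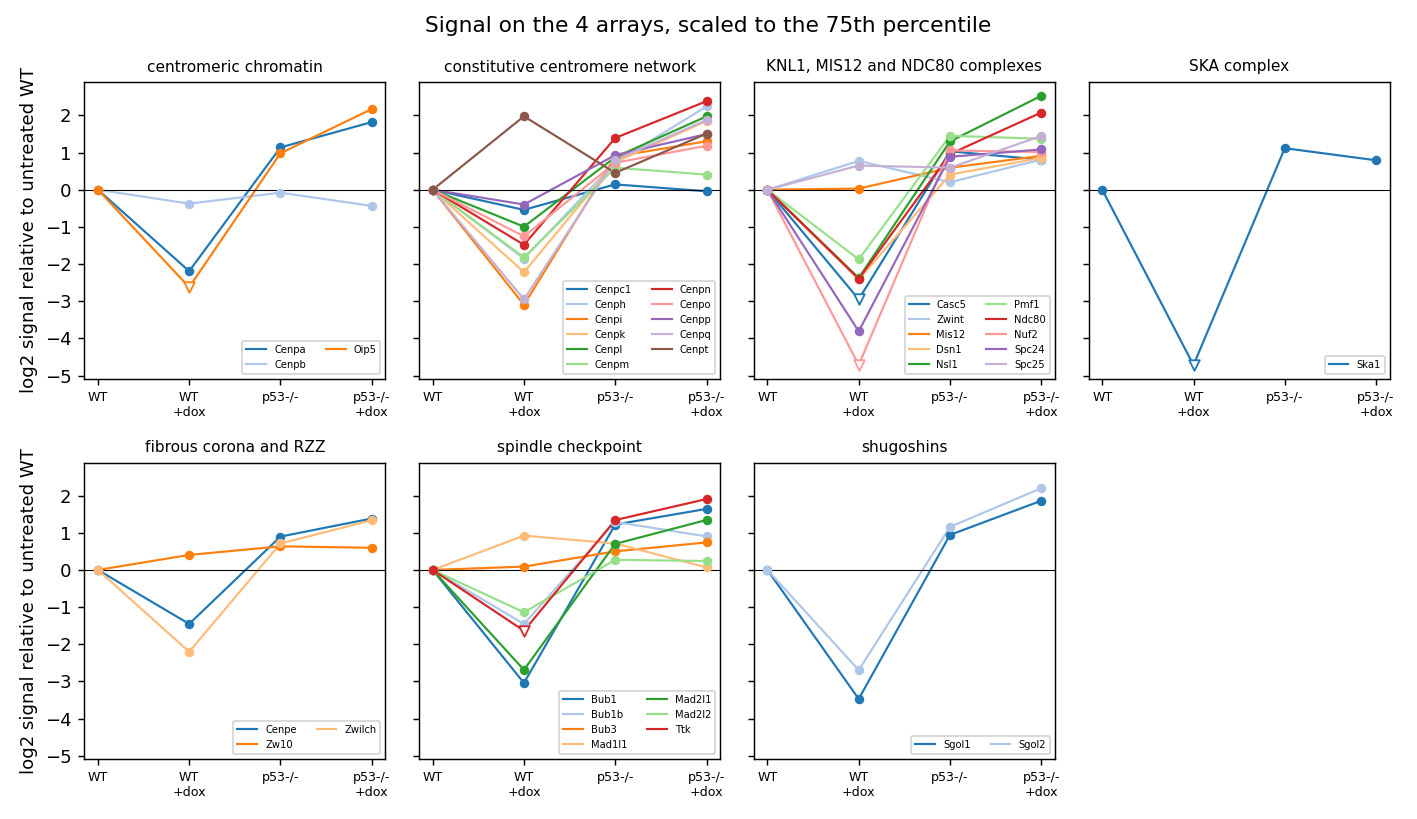
Log2 signal relative to untreated WT MEFs (vertical axis) on the 4 arrays (horizontal axis) for 37 genes, 1 panel per complex, 1 line per gene. Open triangles are limits for genes not well above background, and Cenpf is left out because it was not well above background in untreated WT MEFs. Most lines dip at treated WT MEFs and lie above 0 at both p53-/- arrays, while 7 genes (Cenpt, Mad1l1, Zwint, Spc25, Zw10, Bub3 and Mis12) lie above 0 at treated WT MEFs, of which Bub3 and Mis12 turn to −0.18 and −0.24 with arrays scaled to the median.

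The fibrous corona is the outermost layer that catches microtubules and dynein. Cenpe, a plus-end kinesin of that layer, fell from 558% to 204% in WT MEFs and gave 1040% and 1456% in p53-/- MEFs. Zwilch, a subunit of the Rod-Zwilch-Zw10 complex, fell from 177% to 38.5% in WT MEFs and gave 290% and 447% in p53-/- MEFs. Zw10, of the same complex but also active in vesicle transport, did not fall, at 170% and 225% in WT and 264% and 257% in p53-/- MEFs. The Cenpf probe was not well above background on either WT array and was dim in p53-/- MEFs (5.17% and 6.20%), where the untreated signal lay below the brightest negative control. Cenpf therefore gave no ratio in WT MEFs, and its log2 ratio in p53-/- MEFs was 0.26.

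Of the 7 checkpoint genes, 4 of the 6 measured ones fell in WT MEFs and Ttk fell by a limit, while none passed 2-fold in p53-/- MEFs, where the median was 0.24. Bub1, the kinase that marks centromeric chromatin and docks BUBR1, had 10 spots per array. Its kept spots ranged from 62.7% to 70.4% in untreated WT, 7.42% to 9.62% in treated WT, 148% to 167% in untreated p53-/- and 196% to 218% in treated p53-/- MEFs. These ranges did not overlap, and Bub1 was 8.23-fold lower with doxorubicin in WT MEFs. Mad2l1, the MAD2 protein that binds CDC20, fell from 241% to 37.4% in WT MEFs and gave 392% and 612% in p53-/- MEFs. Bub1b, the BUBR1 subunit of the checkpoint complex, fell from 81.3% to 29.7% in WT MEFs and gave 199% and 152% in p53-/- MEFs. Ttk, the MPS1 kinase at the top of the pathway, was dim from the start at 7.57% in untreated WT MEFs, and its fall of at least 3.11-fold became at least 1.78-fold against the brightest negative control. It gave 19.2% and 28.4% in p53-/- MEFs.

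The remaining checkpoint genes differed. Mad2l2, a relative of MAD2 better known from translesion synthesis and end protection at breaks, fell from 293% to 133% in WT MEFs, just past 2-fold, and gave 354% and 346% in p53-/- MEFs. Bub3, the adaptor that carries BUB1 and BUBR1 to KNL1, gave 723%, 770%, 1023% and 1208% on the 4 arrays and was within 2-fold throughout. Mad1l1, the MAD1 template for MAD2 at kinetochores, ran opposite to most others, with 204% and 387% in WT and 334% and 214% in p53-/- MEFs. Its log2 ratios were 0.92 in WT and −0.65 in p53-/- MEFs, neither past 2-fold.

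The shugoshins, which shield centromeric cohesin until anaphase, fell together in WT MEFs. Sgol1 went from 195% to 17.6% (11.1-fold lower) and Sgol2 from 21.1% to 3.26% (6.47-fold lower), the latter to a signal below the brightest negative control. In p53-/- MEFs Sgol1 gave 375% and 709% and Sgol2 rose from 47.1% to 96.9%, with log2 ratios of 0.92 and 1.04. With doxorubicin, Sgol1 was 40.3-fold higher in p53-/- than in WT MEFs, the largest such ratio among the 32 genes measured on both arrays.

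The responses in WT and p53-/- MEFs were then set against each other. For 32 genes with all 4 values, the median of the WT log2 ratio minus the p53-/- log2 ratio was −2.01. The difference was −1 or lower for 22 of them, where 9.86% of 16538 genes had such a difference, and 1 or higher for Mad1l1 alone. These comparisons share all 4 arrays with the values above. The most frequent pattern was a fall in WT MEFs with a ratio within 2-fold in p53-/- MEFs, seen for 15 of the 32 genes, Cenpi, Spc24, Bub1, Mad2l1 and Sgol1 among them, and for 6.97% of all 16538 genes. A fall in WT MEFs beside a rise in p53-/- MEFs was seen for 6 (Cenph, Cenpk, Cenpq, Nsl1, Ndc80 and Sgol2), where 58 of 16538 genes (0.351%) showed it. With arrays scaled to the median, Cenph alone of these 6 still rose in p53-/- MEFs. At a limit of 1.5-fold in each direction, 12 of the 32 genes had opposite responses of this kind, against 1.84% of all genes, and Mad1l1 had the reverse. With arrays scaled to the median, the p53-/- log2 ratios of Cenpa (0.38), Mad2l1 (0.35) and Zwilch (0.33) no longer reached 1.5-fold. Within 2-fold in both genotypes were 70.9% of all genes and 9 of the 32, namely Cenpb, Cenpc1, Cenpp, Zwint, Mis12, Spc25, Zw10, Bub3 and Mad1l1.

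Without doxorubicin, p53-/- MEFs had more signal than WT MEFs for nearly every kinetochore and checkpoint gene. Of 37 genes measured on both untreated arrays, 36 lay above 0, the exception being Cenpb at −0.08. The median log2 ratio was 0.88, and that of all 17317 genes was 0.00. The median was 1.21 for the 9 mitotic and proliferation genes and 0.71 for the 15 S phase genes described below. At least 2-fold higher were 11 genes, where 2.15% of all genes were, and 0 were at least 2-fold lower, where 2.62% were. The 11 became 7 over genes well above background on all 4 arrays (1.87% of all genes) and 8 with normexp background correction (1.26%). In order of their ratios, the 11 were Pmf1 (2.73-fold), Cenpn (2.63-fold), Ttk (2.54-fold), Nsl1 (2.46-fold), Bub1b (2.45-fold), Bub1 (2.33-fold), Sgol2 (2.24-fold), Cenpa (2.20-fold), Ska1 (2.17-fold), Nuf2 (2.09-fold) and Casc5 (2.05-fold). Steps between neighbors in this order were smaller than the spread between repeat spots. Lowest after Cenpb came Cenpc1, Zwint and Mad2l2, at log2 ratios of 0.14, 0.20 and 0.27. Another Zwint probe gave −0.30, so the sign for Zwint depends on the probe.

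With doxorubicin the genotypes stood far apart. Of 32 genes measured on both treated arrays, 23 were at least 2-fold higher in p53-/- MEFs, where 11.9% of 17918 genes were, and 0 were at least 2-fold lower, where 10.3% were. The median log2 ratio was 3.10, against 0.00 for all genes and 4.28 for the 9 mitotic and proliferation genes described below. Another 6 were higher by limits, the lowest limit being 2.54-fold for Cenpf. That makes 29 of 38 genes, where 2756 of 19047 genes counted the same way were higher. Here too, genes entered by a limit only if it reached 2-fold. Against the brightest negative control, the limit for Cenpf was 1.45-fold, below the threshold, and the other 5 lay between 6.66-fold for Ttk and 30.3-fold for Nuf2. Among genes with treated WT signals above the brightest negative control, Nsl1 (29.9-fold), Cenpq (28.3-fold) and Bub1 (25.7-fold) came after Sgol1. Spc24 and Sgol2 (both 29.7-fold) were taken against signals below that control, so their place in this order is not known. These ratios hold the untreated difference, the fall in WT MEFs and any rise in p53-/- MEFs together. For 19 of the 32 genes the 4 arrays ran in the order treated WT, untreated WT, untreated p53-/- and treated p53-/-, from lowest to highest, as they did for 8.34% of all 16538 genes. Cenpb, Mad1l1 and Cenpt were the genes with lower signal in treated p53-/- than in treated WT MEFs, all within 2-fold.

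**Figure D3:**
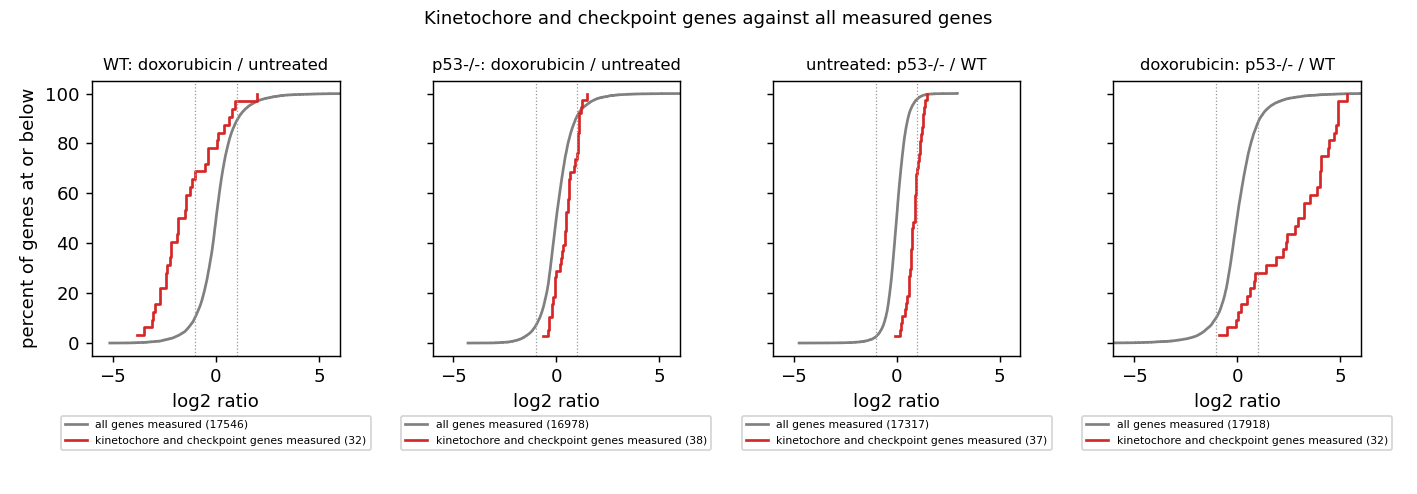
Cumulative percent of genes (vertical axis) at or below each log2 ratio (horizontal axis) for the kinetochore and checkpoint genes measured (red) and all genes measured (gray) in the 4 comparisons, with dotted lines at 2-fold. The red line lies left of the gray one for WT MEFs up to the highest ratios, and right of it in the other panels over most of its course, farthest in doxorubicin-treated cells, where the medians were 3.10 and 0.00.

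Several genes had more than 1 probe, and 12 of the 38 did. Both measured probes of Cenpk (log2 ratios of −2.23 and −2.22 in WT MEFs), Cenpl (−0.99 and −0.90) and Zwilch (−2.20 and −1.87) ran close together, as did the 3 probes of Mad2l1 (−2.69, −2.41 and −2.14). The same probes were also close in p53-/- MEFs, at 1.10 and 1.15 for Cenpk and 0.64, 0.70 and 0.57 for Mad2l1. The probes of Cenpo and of Cenpb disagreed. For Cenpo, the brighter probe fell by 1.26 on the log2 scale in WT MEFs, while the dimmer one, at 3.75% of the 75th percentile in untreated WT MEFs, gave 1.31, a rise. The mean of both was 0.02, so the fall of Cenpo depends on the probe. Neither probe of Zwint fell, at 0.77 and 0.42 in WT MEFs, but in untreated p53-/- over WT MEFs they gave 0.20 and −0.30. For Cenpb the brightest probe gave −0.37 in WT MEFs and 2 dimmer probes −1.12 and 0.03, so 1 of the 3 passed 2-fold. In treated p53-/- over WT MEFs the Cenpb probes gave −0.06, 1.10 and −0.99. The second probes of Nuf2 and Mad2l2 were not well above background on any array.

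**Figure D4:**
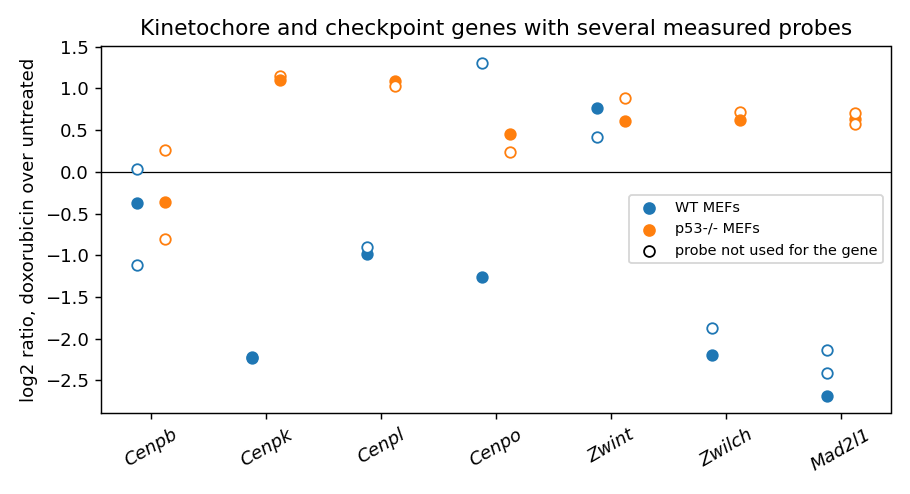
Log2 ratio of doxorubicin-treated over untreated MEFs (vertical axis) for the 7 genes with more than 1 probe measured on all 4 arrays, in WT (blue) and p53-/- MEFs (orange). Filled points are the probe used for the gene, open points its other probes. The probes lie close together for Cenpk, Cenpl, Zwilch and Mad2l1, while the Cenpo probes lie at −1.26 and 1.31 in WT MEFs.

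Promoters of late cell cycle genes often carry a cell cycle genes homology region (CHR, TTTGAA), read by the DREAM and MuvB complexes, CCAAT boxes, read by NF-Y, or E2F sites. These letters were searched on both strands in RefSeq promoters of GRCm38.p6, from 250 bases before to 50 bases after each start. The E2F letters were TTTCCCGC, TTTGGCGC, TTTGCCGC and TTTCGCGC. A promoter was found for 36 of the 40 genes and not for Nsl1, Spc24, Ska1 and Zwilch. Stretches from 180 bases before to 30 after the start are shown for 3 genes that fell in WT MEFs and 2 that did not, 5′ to 3′ on the strand of the gene, with CHR and CCAAT letters in capitals (TTCAAA and ATTGG where they lie on the other strand).
Cenpa: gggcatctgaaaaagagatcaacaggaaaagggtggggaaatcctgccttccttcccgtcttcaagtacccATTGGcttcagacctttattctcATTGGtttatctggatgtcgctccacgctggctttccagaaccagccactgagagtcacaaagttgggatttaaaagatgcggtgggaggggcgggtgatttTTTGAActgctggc
Ttk: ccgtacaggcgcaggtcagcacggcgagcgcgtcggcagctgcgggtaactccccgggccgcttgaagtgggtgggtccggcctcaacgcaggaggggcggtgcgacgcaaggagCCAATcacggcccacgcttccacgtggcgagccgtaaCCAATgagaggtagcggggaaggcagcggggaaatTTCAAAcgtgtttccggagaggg
Bub1: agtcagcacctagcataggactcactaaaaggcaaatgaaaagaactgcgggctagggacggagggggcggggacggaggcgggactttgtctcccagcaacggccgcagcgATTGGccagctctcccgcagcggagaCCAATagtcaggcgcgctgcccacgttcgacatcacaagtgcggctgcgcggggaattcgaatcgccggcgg
Spc25: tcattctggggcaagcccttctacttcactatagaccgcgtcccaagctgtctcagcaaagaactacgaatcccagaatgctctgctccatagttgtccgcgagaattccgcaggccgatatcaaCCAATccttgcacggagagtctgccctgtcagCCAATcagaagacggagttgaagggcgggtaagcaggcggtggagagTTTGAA
Cenpt: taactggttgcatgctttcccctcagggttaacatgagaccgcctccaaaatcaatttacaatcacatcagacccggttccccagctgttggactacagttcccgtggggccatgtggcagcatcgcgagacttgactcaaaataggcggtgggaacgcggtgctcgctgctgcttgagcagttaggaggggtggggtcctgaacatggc

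In GRCm38.p6 these lie at chr5:30666706-30666915, plus strand (Cenpa), chr9:83834509-83834718, plus strand (Ttk), chr2:127831830-127832039, minus strand (Bub1), chr2:69206184-69206393, minus strand (Spc25) and chr8:105851979-105852188, minus strand (Cenpt). The Cenpa stretch held 2 CCAAT boxes before the start and a CHR at positions 17 to 22 after it (counted from 1 at the start). Ttk held the same letters in the same order, each on the other strand than in Cenpa, with the CHR at positions 8 to 13. Bub1, which fell 8.23-fold in WT MEFs, held 2 CCAAT boxes and no TTTGAA in this window. Spc25, which did not fall, held 2 CCAAT boxes and a CHR at positions 25 to 30, and so had the same set of letters as Cenpa and Ttk. Cenpt, which rose, held none of the letters searched in the whole window.

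Counted over genes, at least 1 CCAAT was found for 16 of the 22 genes with a promoter that fell in WT MEFs, limits included (72.7%), for 6 of the 11 genes that did not fall (54.5%) and for 41.1% of all 27025 genes with a promoter. A CHR was found for 8 of the 22 (36.4%) and for 4 of the 11 (36.4%), against 20.2% of all genes. CHR and CCAAT occurred together in 6 of the 22 (27.3%) and 3 of the 11 (27.3%), against 7.97%. E2F letters were found for 2 genes in each group, Cenpm and Dsn1 among those that fell and Cenpb and Cenpl among the others, against 2.60% of all genes. The CHR share was equal for genes that fell and genes that did not, but it turned on single genes near the limit. Cenpl, with both CHR and CCAAT, was counted as not falling at a log2 ratio of −0.99. It gave −1.27 with arrays scaled to the median and −1.04 with quantile normalization. Ttk, also with both, was counted as falling, with a limit of 1.78-fold against the brightest negative control. These matches describe letters within the window and were not tested as sites. TTTGAA was the only spelling of the CHR searched, so the CHR counts hold for that spelling alone.

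The fall in WT MEFs reached beyond these genes, though not to every list examined. Over all genes measured, 10.4% fell in WT MEFs, while in p53-/- MEFs 6.89% fell and 9.24% rose. Of 10 other centromere and kinetochore genes, 9 had a probe, and 5 of the 6 measured fell in WT MEFs with a median of −1.93, with 3 more by limits. Kntc1, the ROD subunit that joins Zwilch and Zw10, had the lowest measured log2 ratio, −3.08. In p53-/- MEFs 0 of the 9 fell and 2 rose. All 3 measured subunits of the chromosomal passenger complex, the Aurora B kinase module that corrects wrong attachments, fell in WT MEFs (log2 ratios of −2.05 for Incenp, −2.41 for Cdca8 and −3.12 for Birc5), while the Aurkb probe gave no ratio. The anaphase-promoting complex is the target of the checkpoint. Of 19 measured genes of the complex and its partners, 5 fell in WT MEFs and the median was −0.55. Trip13, the ATPase that remodels MAD2 (−3.51), Ube2c, the ubiquitin-conjugating enzyme of the complex (−3.40), and Espl1, the separase gene (−2.98), had the lowest log2 ratios. Of 10 cohesin genes 1 fell in WT MEFs (Cdca5, the sororin gene, at −3.46), near the share of all genes, with a median of −0.83. In p53-/- MEFs 2 of the cohesin genes fell.

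Markers of dividing cells moved with the kinetochore genes. Mki67, the proliferation antigen of cycling cells, gave 981% and 62.7% in untreated and treated WT MEFs and 1970% and 2428% in p53-/- MEFs, with log2 ratios of −3.97 and 0.30. It was 1 of 9 mitotic and proliferation genes listed apart from the kinetochore, of which all 9 fell in WT MEFs (median −3.22) and 0 passed 2-fold in p53-/- MEFs (median 0.40). Of 14 measured S phase genes 11 fell in WT MEFs (median −2.20), and of 15 in p53-/- MEFs 1 fell and 2 rose (median 0.60). Over all genes, 10.4% fell in WT MEFs, and 6.89% fell and 9.24% rose in p53-/- MEFs. These lists also shared the differences between genotypes. In untreated cells all 9 mitotic and all 15 S phase genes were above 0 for p53-/- over WT MEFs. At least 2-fold higher were 7 and 2 of them, where 2.15% of all genes were. With doxorubicin 9 of 9 and 13 of 14 were at least 2-fold higher (medians 4.28 and 2.94), where 11.9% of all genes were. Trp53 and 4 of its targets all rose in WT MEFs, and 1 of the 5 rose in p53-/- MEFs. The part of the number of cycling cells in the values of the kinetochore genes was not tested.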

How the data were processed

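RNA from 4 conditions was measured on 1 array each. The deposited intensities came from Agilent Feature Extraction (10.7.3.1), with which the authors subtracted background and removed trends within an array, and were not normalized between arrays. The authors' series table equalled these intensities at 44397 of 44397 spots on each array (relative tolerance 0.0001). Deposited 0 or 1 flags marked spots well above background, saturated (0 spots) or outliers, which were left out (145 to 168 of 43020 spots). Here log2 intensities of a probe's spots were averaged and the array's 75th percentile over 39429 probes was subtracted. Each gene was represented by the probe of highest average across the arrays. A limit ("at least") used the lowest signal well above background on the dim array (44.3 in treated WT MEFs), or its brightest negative control (77.5). Probe positions are those of mm9. Promoters and names came from RefSeq (GRCm38.p6), where Casc5, Sgol1 and Sgol2 are Knl1, Sgo1 and Sgo2a. No test was possible with 1 array per condition. The number of arrays limits the precision.

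Every listed gene is named, and of other lists Trp53, Mki67 and at most 3 genes by the size of their WT ratio, apart from cell type markers. The members and lists were chosen with earlier results of these data known. The extremes of each complex and every gene that moved against the majority were given in full. Alternatives were the array median, quantile normalization, normexp (limma 3.58.1, R 4.3.3, offset 50), other filters on dim probes, the mean of a gene's probes, names through accessions, the series table, and limits of 1.5-fold and 3-fold. Python 3.11.15 with pandas 2.3.3 was used, and the steps were tested on simulated arrays.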

Additional observations from a re-analysis of the deposited data

Results flagged for a closer look

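In 13 genes the array values moved in opposite directions in the genotypes, at least 1.5-fold each way. The difference between genotypes was not tested, since each condition is 1 array. With arrays scaled to the median, Cenpa, Mad2l1 and Zwilch no longer reached 1.5-fold in p53-/- MEFs (log2 ratios of 0.38, 0.35 and 0.33). The WT log2 ratio minus the p53-/- log2 ratio was −4.39 for Sgol1, −4.02 for Cenpq, −3.73 for Sgol2, −3.60 for Nsl1 and −3.51 for Ndc80. It was −3.36 for Cenph, −3.33 for both Mad2l1 and Cenpk, −2.87 for Cenpa, −2.82 for Zwilch, −2.47 for Cenpn and −2.09 for Cenpl. Mad1l1 had the opposite sign at 1.57, higher in WT and lower in p53-/- MEFs. Sgol2 rests on a treated WT signal below the brightest negative control spot of its array.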

How the results depend on the processing

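The counts of genes that fell in WT MEFs (21) and that were higher in treated p53-/- MEFs (23) stayed within 1.5 times under every alternative run. Scaling to the array median gave medians of −1.92 in WT and 0.17 in p53-/- MEFs and left 1 gene higher in p53-/- MEFs. With normexp the median was −1.39 in WT MEFs and 2.76 for treated p53-/- over WT MEFs. With no filter on dim probes the medians were −1.86 in WT MEFs, 3.52 for treated p53-/- over WT MEFs and −2.65 for the difference of ratios. With genes well above background on all 4 arrays, the untreated median was 0.74 and 7 genes were higher, since Casc5, Nuf2, Ska1 and Ttk no longer entered. With genes above the brightest negative control, the medians were −1.45 in WT MEFs and 2.96 for treated cells, and Cenpm, Sgol2 and Spc24 no longer entered. With the mean of the probes, Cenpo had a log2 ratio of 0.02 in WT MEFs and Mad2l2 no longer fell. At 1.5-fold, 4 of 32 genes were higher in WT MEFs (20.6% of all genes), 16 of 38 higher (19.4%) and 1 lower (15.9%) in p53-/- MEFs, 30 of 37 higher in untreated p53-/- MEFs (8.73%) and 1 of 32 lower in treated p53-/- than WT MEFs (19.7%). At 3-fold, 0 were higher in p53-/- MEFs with doxorubicin (3.82% of all genes) and 0 in untreated p53-/- MEFs (0.254%). Unless named, the cause was not tested. Among genes below 2-fold, Bub3 and Mis12 in WT and Bub3, Cenpf and Spc24 in p53-/- MEFs changed sign under some alternative. Scaling to spike-in spots was not run, since their signals lay in the background range (medians up to 27.6), nor was slide as a block, with 1 slide. No paired analysis was possible because each group holds 1 sample and no test was run.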

Other observations

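Ska2 and Ska3 have no probe of that name, but probes with accessions that RefSeq assigns to them are listed as Fam33a and F630043A04Rik. Through these, the log2 ratio of Ska3 was −2.56 for WT and 0.71 for p53-/- MEFs, with signals of 520 and 77.1 in untreated and treated WT MEFs, the latter below the brightest negative control at 77.5. For Ska2 it was −0.87 for WT and 0.57 for p53-/- MEFs. In treated cells, p53-/- over WT log2 ratios were 4.65 for Ska3 and 2.21 for Ska2.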
